A study of Homo sapiens with 6 samples.

Results

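The genes described here are 39 genes of the NRF2 pathway, of the enzymes that remove peroxides and of NADPH and pentose phosphate enzymes. They were chosen by name from a list that was set with earlier results of these data known. The count table held 38 of them among its 21776 genes, and SOD3, the secreted superoxide dismutase, had no row. RNA sequencing compared a wild-type HNSCC cell line under hypoxia (1% O2, 5% CO2 and nitrogen) with the same line under normoxia (5% CO2 in air), both for 12 h, with 3 libraries per condition. The labels name the line SCC25, whereas the study's text names SCC9 for its pathway comparison of hypoxia with normoxia; both are established lines of oral squamous cell carcinoma, and a result in 1 line was not repeated in another here. The labels do not say whether the 3 libraries of a condition came from separate cultures, so the p-values measure the spread between these libraries only. Total counts were 37278703, 29637189 and 29981208 in normoxia replicates 1 to 3 and 30186813, 36076088 and 32272716 in hypoxia replicates 1 to 3.

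Markers were read before the results. Of 10 squamous epithelial markers, 9 passed the filter on low counts, among them KRT5, TP63, DSP, CDH1 and EPCAM, whereas KRT14, a keratin of basal squamous cells, had 1 count in normoxia replicate 2 and 0 in the other libraries. The squamous markers summed to 496 to 511 FPKM (fragments per kilobase of gene, scaled to the library total) under normoxia and 462 to 473 FPKM under hypoxia. In CPM, which are not divided by gene length, the sum went the other way, from 1191 to 1270 under normoxia to 1387 to 1390 under hypoxia. Of these markers 4 were higher and 4 lower by edgeR (44.4% of those tested in each direction), against 39.2% and 38.5% of all tested genes. KRT6A, a keratin of stressed epithelium, went from 16.5 to 0.951 mean CPM (log2-fold change -4.12 ± 0.25, edgeR adjusted p = 7.48e-11), a larger decrease than that of any tested member, and CDH1, the epithelial cadherin, went from 188 to 479 mean CPM (1.35 ± 0.054, edgeR adjusted p = 5.77e-13). DSG3, a desmosomal cadherin, and KRT17 were also higher by at least 2-fold. Per length, EPCAM was the most abundant of the 10 in both conditions, at a mean of 202 FPKM under normoxia and 164 FPKM under hypoxia. The leukocyte markers PTPRC, CD3E and LYZ were at 0 to 2 counts in every library, and the sum of 4 leukocyte markers, nearly all of it CD68, was 18.2 to 19.8 FPKM under normoxia and 16.2 to 20 FPKM under hypoxia. The sum of 6 fibroblast markers, led by COL1A1, was 0.516 to 0.959 FPKM under normoxia and 2.96 to 3.96 FPKM under hypoxia, and that of 4 endothelial markers, led by CDH5, was 0.0659 to 0.178 and 0.255 to 0.34 FPKM. COL1A2, COL3A1, DCN, LUM, PECAM1, VWF and KDR did not pass the filter on low counts. COL1A1 was higher under hypoxia (log2-fold change 2.26 ± 0.16, edgeR adjusted p = 1.02e-09), as was CDH5 at 9 to 34 counts (1.14 ± 0.44, edgeR adjusted p = 0.025). PDGFRB did not pass the threshold (0.96 ± 0.43, edgeR adjusted p = 0.0507). The part of these genes in the results below was not tested. In bulk RNA, a smaller share of cells that express a gene and less RNA of that gene per cell cannot be told apart. All 15 genes of a hypoxia response list were higher under hypoxia, against 39.2% of all tested genes. Their median log2-fold change was 2.71, and CA9, VEGFA and EGLN3 were among them. Normoxia replicate 3 lay nearer to hypoxia than normoxia replicates 1 and 2 in CA9 (67.7 CPM against 32.2 and 27.3). The same held for EGLN3 (10.7 against 5.86 and 3.74) but not for ADM (16.8 against 17.9 and 17.9). Among the members it held for TXNRD1, GCLM and GPX4 but not for HMOX1.

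NRF2, the product of NFE2L2, is a transcription factor that KEAP1 holds for degradation in unstressed cells and that escapes when electrophiles or oxidants modify KEAP1. With small MAF proteins it binds the antioxidant response element and turns on genes for glutathione synthesis, the thioredoxin system, quinone reduction and NADPH supply, whereas BACH1 competes for the same element. Peroxiredoxins and glutathione peroxidases remove peroxides, and thioredoxin and glutathione, kept reduced with NADPH, restore them.

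The question was which of these genes differed between hypoxia and normoxia. Most of the tested members were lower under hypoxia, and the largest decreases were those of AKR1C1, AKR1C2, SRXN1, GCLM and TXNRD1. HMOX1, GPX4, PRDX5 and CAT were higher. By edgeR's quasi-likelihood test (Benjamini-Hochberg adjustment over all 14255 tested genes, threshold 0.05), 4 of the 34 members with enough counts to be tested were higher, 22 were lower and 8 did not pass. AKR1B10, GSTM3, GPX2 and GPX3 were not tested, at 0 to 24 counts per library. Across all tested genes 77.8% passed the same threshold, 39.2% higher and 38.5% lower, so that the 76.5% of members called was close to the background, while 64.7% of the tested members were lower. A decrease of at least 2-fold was called for 12 members (35.3%) and for 10.5% of all tested genes. An increase of at least 2-fold was called for 2 members, HMOX1 and GPX4, and for 19.9% of all tested genes. The median log2-fold change was -0.58 over the tested members and 0.023 over all tested genes. The CPM of the conditions did not overlap for 27 of the 34 members, and for 80.5% of all tested genes. The members were listed by name with earlier results of these data known, so these shares are descriptions of the list. No test was made of the list as a whole.

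**Figure D1:**
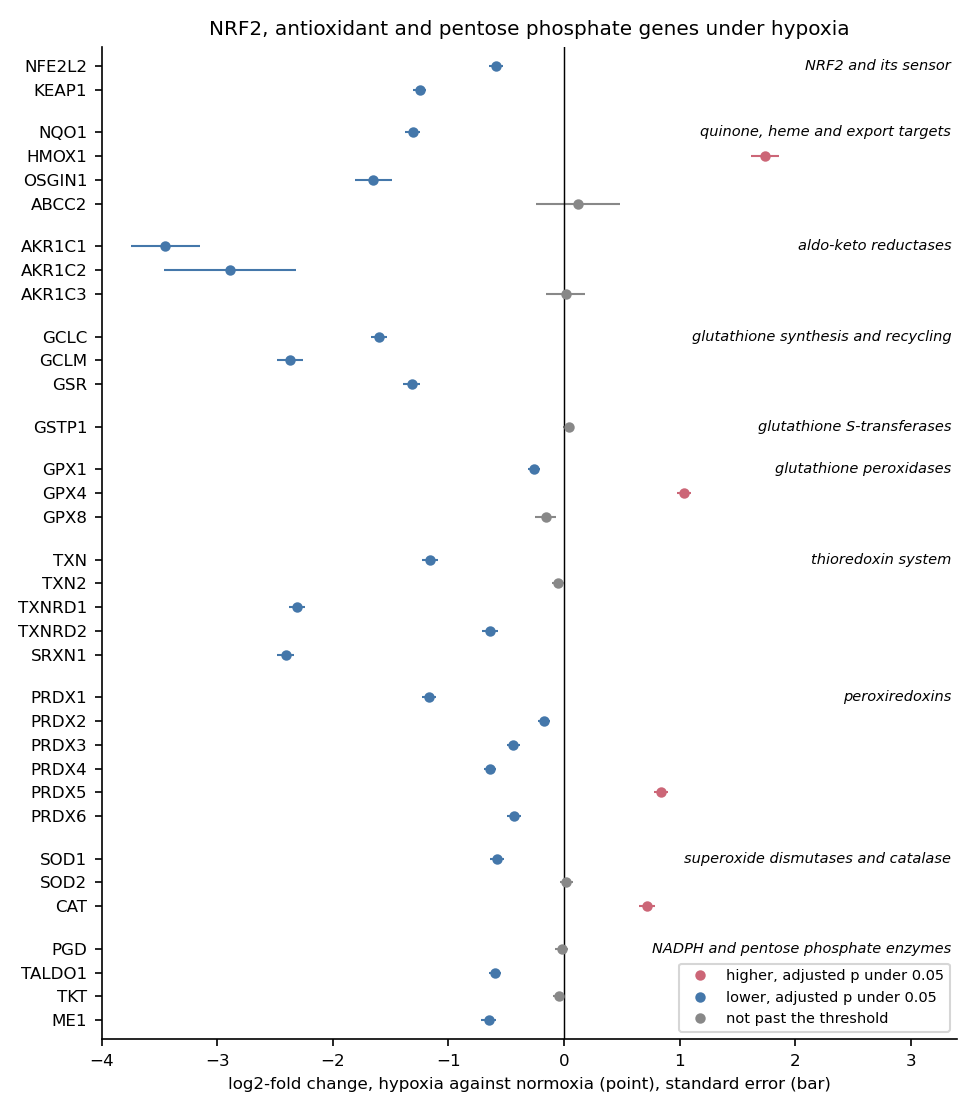
Log2-fold change of each of the 34 tested members, hypoxia against normoxia (x axis), by gene (y axis) and grouped by role; points are estimates from 3 libraries per condition and bars are standard errors. The 4 higher members are HMOX1, GPX4, PRDX5 and CAT, and AKR1C1 has the lowest value at -3.45.

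Promoter sequence was read because many of the members are known NRF2 targets and the letters NRF2 binds are known. RefSeq windows of 300 bases (GRCh38.p14, 250 before and 50 after the annotated start) were found for 31 of the 38 members; HMOX1, AKR1B10, GSR, TXN2, PRDX1, PRDX6 and SOD1 were not matched. The core of the antioxidant response element, TGACNNNGC on either strand, was in 6 of the 31 windows (19.4%), in 15.1% of 11412 windows of tested genes and in 13.6% of all 27305 windows. It was in 2 of 10 members that were lower by at least 2-fold and had a window (20%) and in 4 of the 21 others (19%). The 6 genes were GCLM, GSTP1, GPX2, TXNRD1, PGD and ME1. For 5 of them, all but the barely counted GPX2, the stretch around a match upstream of the start is shown 5′ to 3′ on the strand of the gene, with the matching letters in capitals and the match as written in TXNRD1, GSTP1 and ME1 and as the reverse complement in GCLM and PGD. They are shown because TXNRD1 and GCLM were among the members with the largest decreases, ME1 was lower by less than 2-fold, and GSTP1 and PGD did not pass the threshold. The stretches lie at chr1:93909431-93909494 (minus strand) for GCLM, chr12:104215650-104215718 (plus) for TXNRD1, chr6:83431150-83431218 (minus) for ME1, chr11:67583716-67583784 (plus) for GSTP1 and chr1:10398833-10398901 (plus) for PGD.
GCLM: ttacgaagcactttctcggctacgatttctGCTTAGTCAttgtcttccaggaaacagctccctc
TXNRD1: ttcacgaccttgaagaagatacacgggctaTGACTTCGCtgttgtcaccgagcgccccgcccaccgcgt
ME1: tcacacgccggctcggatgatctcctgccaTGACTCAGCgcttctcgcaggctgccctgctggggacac
GSTP1: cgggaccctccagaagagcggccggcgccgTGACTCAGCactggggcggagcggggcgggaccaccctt
PGD: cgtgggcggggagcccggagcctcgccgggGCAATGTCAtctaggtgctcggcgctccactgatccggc

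The first capital letter lies 34 bases before the annotated start in GCLM, 99 in TXNRD1, 137 in ME1, 66 in GSTP1 and 201 in PGD. The windows of TXNRD1 and of ME1 each hold 2 matches, of which 1 is shown. In ME1 and GSTP1 the match shown overlaps an AP-1 word (TGACTCA or TGAGTCA), which was in 3 of the 31 windows (9.68%) and in 3.42% of windows of tested genes. The hypoxia response element core, ACGTG or GCGTG on either strand, was in 17 windows (54.8%) against 62.5% of windows of tested genes. A match is a description of letters in the window, and elements outside these windows were not read.

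NFE2L2 (Entrez 4780) and its sensor were both lower under hypoxia. NFE2L2 was at 89.1, 104 and 94.1 CPM (counts relative to the library total after TMM normalization) under normoxia and at 62.3, 63.2 and 65 CPM under hypoxia. Every hypoxic library was below every normoxic library. The log2-fold change was -0.59 ± 0.062 (SE), with an adjusted p-value of 1.21e-07 by edgeR. KEAP1 (Entrez 9817), the adaptor that targets NRF2 for degradation, was at 137, 143 and 136 CPM under normoxia and at 61.6, 55.7 and 58 CPM under hypoxia. The groups did not overlap, and KEAP1 was 2.38-fold lower under hypoxia (log2-fold change -1.25 ± 0.056, edgeR adjusted p = 2.46e-12). RNA levels do not measure the amount or activity of NRF2 protein, which is set largely by degradation.

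Quinone, heme and export targets moved in different directions. NQO1 (Entrez 1728), which reduces quinones with NADH or NADPH, was at 387, 411 and 378 CPM under normoxia and at 167, 142 and 166 CPM under hypoxia. All hypoxic libraries were below the normoxic ones, and NQO1 was 2.48-fold lower (log2-fold change -1.31 ± 0.064, edgeR adjusted p = 5.91e-12). In the GENCODE annotation, NQO1 shares 18.4% of its exonic bases with AC092115.2 on the opposite strand. That gene has no row among the counted genes. OSGIN1, an oxidative stress induced growth inhibitor, went from 10.6 ± 1.87 to 3.36 ± 0.509 CPM (SD, n = 3 libraries each), a log2-fold change of -1.65 ± 0.16, again with no overlap (edgeR adjusted p = 5.38e-08). HMOX1 (Entrez 3162), the heme oxygenase that breaks heme down to biliverdin, iron and carbon monoxide, was the target that rose. It was at 5.8, 5.66 and 4.87 CPM under normoxia and at 16, 19.2 and 19.4 CPM under hypoxia. The hypoxic libraries were all above the normoxic ones, 3.34-fold on average (log2-fold change 1.74 ± 0.12, edgeR adjusted p = 4.73e-10). ABCC2, an export pump for glutathione conjugates, was at 21 to 43 counts in every library and the groups overlapped, with a log2-fold change of 0.12 ± 0.36.

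The 4 aldo-keto reductases among the members, enzymes that reduce aldehydes and ketones including steroids, had low counts. AKR1C1 (Entrez 1645) had 163, 206 and 160 counts under normoxia and 22, 10 and 19 counts under hypoxia. The groups were far apart, and AKR1C1 was 10.9-fold lower (log2-fold change -3.45 ± 0.3, edgeR adjusted p = 1.14e-08), the largest change of any tested member. AKR1C2 went from 23, 19 and 17 counts to 3, 1 and 4 counts, a log2-fold change of -2.89 ± 0.57 (edgeR adjusted p = 0.000191). AKR1C3 had 173, 111 and 129 counts under normoxia and 152, 143 and 138 counts under hypoxia, which overlapped, with a log2-fold change of 0.014 ± 0.17. These paralogs are close in sequence and may share reads. Summed over the 3 genes, the counts were 359, 336 and 306 under normoxia and 177, 154 and 161 under hypoxia, a log2-fold change of -1.09 ± 0.14 (edgeR adjusted p = 2.3e-06). AKR1B10, a related reductase, had 4, 24 and 3 counts under normoxia and 1, 5 and 10 under hypoxia and was not tested.

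The 3 genes of glutathione synthesis and recycling were all lower by more than 2-fold, a decrease called for 10.5% of all tested genes. GCLC (Entrez 2729), the catalytic subunit of the enzyme that makes gamma-glutamylcysteine, was at 58.9, 60 and 53.6 CPM under normoxia and at 18.7, 18.7 and 19.5 CPM under hypoxia. The modifier subunit GCLM (Entrez 2730) was at 64.5, 66 and 52.9 CPM under normoxia and at 12.3, 9.79 and 13.4 CPM under hypoxia. The groups did not overlap for either subunit. The log2-fold change was -1.60 ± 0.069 for GCLC (edgeR adjusted p = 1.51e-12) and -2.37 ± 0.11 for GCLM (edgeR adjusted p = 2.21e-12), which is 3.03-fold and 5.18-fold lower. GSR (Entrez 2936), which reduces oxidized glutathione with NADPH, was at 137, 146 and 118 CPM under normoxia and at 58.9, 51.2 and 50.6 CPM under hypoxia. It was 2.5-fold lower without overlap (log2-fold change -1.32 ± 0.077, edgeR adjusted p = 4.96e-11).

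Glutathione users were divided. GSTP1, a cytosolic glutathione S-transferase, was at 675 to 700 CPM under normoxia and at 695 to 735 CPM under hypoxia; the groups overlapped and the log2-fold change was 0.041 ± 0.049. GSTM3, another transferase, had 1 count in 1 normoxic library and 0 in the other 5. GPX4 (Entrez 2879), the glutathione peroxidase that reduces lipid peroxides in membranes, was at 104, 103 and 119 CPM under normoxia and at 229, 216 and 228 CPM under hypoxia. All hypoxic libraries were above all normoxic ones, and GPX4 was 2.06-fold higher (log2-fold change 1.04 ± 0.06, edgeR adjusted p = 4.9e-11). GPX1, the cytosolic enzyme for hydrogen peroxide, went from 268 ± 8.07 to 224 ± 10.5 CPM (SD, n = 3), a small decrease without overlap (log2-fold change -0.26 ± 0.053, edgeR adjusted p = 0.000228). GPX8, a peroxidase of the endoplasmic reticulum, went from 23.9 ± 0.918 to 21.4 ± 2.18 CPM with overlapping groups and did not pass the threshold (log2-fold change -0.16 ± 0.088). GPX2 and GPX3 had 0 to 4 counts in each library.

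In the thioredoxin system 4 of 5 members were lower, 3 of them by at least 2-fold, against 38.5% and 10.5% of all tested genes. TXNRD1 (Entrez 7296), the cytosolic thioredoxin reductase, was at 949, 1019 and 855 CPM under normoxia and at 206, 176 and 187 CPM under hypoxia. The lowest normoxic library was far above the highest hypoxic library, and TXNRD1 was 4.96-fold lower (log2-fold change -2.31 ± 0.07, edgeR adjusted p = 3.08e-14). SRXN1 (Entrez 140809), the sulfiredoxin that restores overoxidized peroxiredoxins, was at 295, 326 and 264 CPM under normoxia and at 56.4, 52 and 58.1 CPM under hypoxia. It was 5.32-fold lower without overlap (log2-fold change -2.41 ± 0.073, edgeR adjusted p = 3.01e-14). TXN, the cytosolic thioredoxin that TXNRD1 reduces, went from 334 ± 13.3 to 149 ± 14.3 CPM (SD, n = 3; log2-fold change -1.16 ± 0.065, edgeR adjusted p = 3.23e-11). The mitochondrial pair changed less. TXNRD2, the mitochondrial reductase, went from 35 ± 1.15 to 22.5 ± 0.807 CPM (log2-fold change -0.64 ± 0.072, edgeR adjusted p = 2.97e-07). TXN2, the mitochondrial thioredoxin, was at 64.4, 64.8 and 66.2 CPM under normoxia and at 63.5, 61.3 and 64.2 CPM under hypoxia. The groups just failed to overlap, and the log2-fold change of -0.049 ± 0.055 did not pass the threshold (edgeR adjusted p = 0.424). In the GENCODE annotation, 85.0% of the exonic bases of SRXN1 are shared on the same strand with AL121758.1, which has no row in the table, so the SRXN1 value may hold reads of both.

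**Figure D2:**
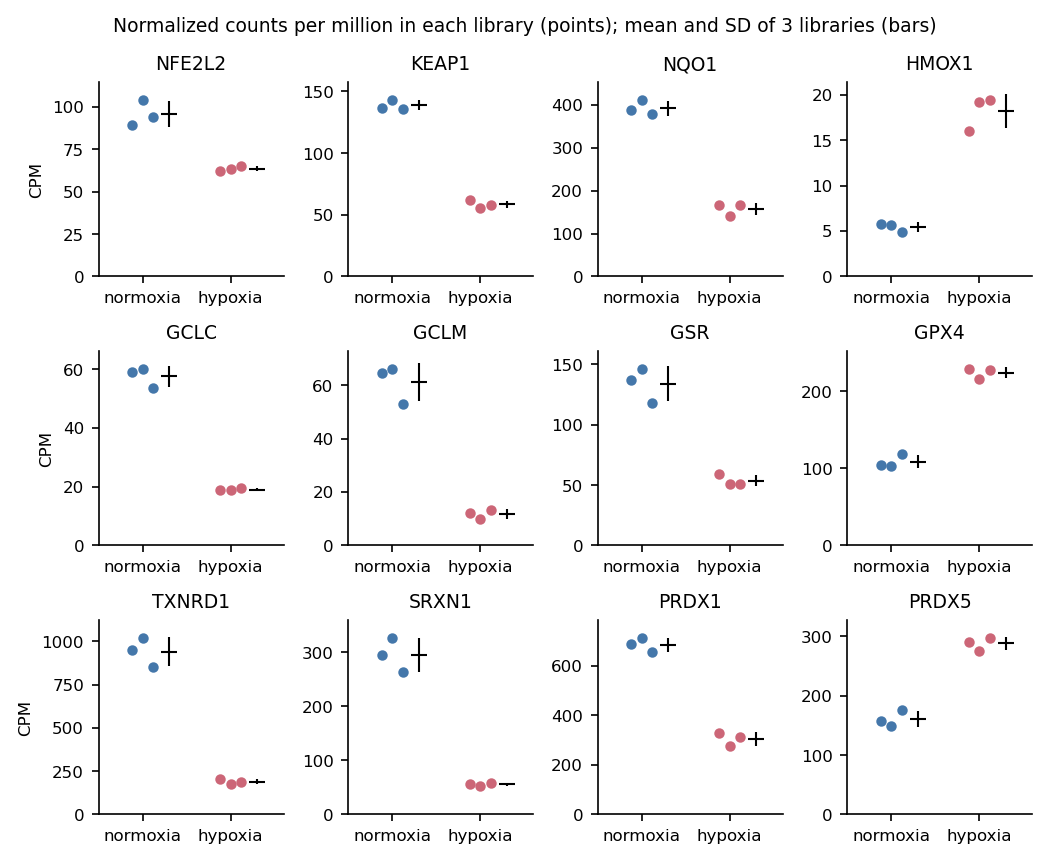
TMM-normalized CPM (y axis, from 0) of 12 members in the 3 normoxic and the 3 hypoxic libraries (x axis); each point is a library and the bars give the mean and SD. HMOX1, GPX4 and PRDX5 lie higher under hypoxia and the other 9 lower, and no pair of groups overlaps. The 12 are a selection. Of all 34 tested members 4 were higher and 22 lower, against 39.2% and 38.5% of all tested genes. The groups did not overlap for 27 of the 34, and for 80.5% of all tested genes.

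All 6 peroxiredoxins passed the threshold, 5 lower and 1 higher, where 77.8% of all tested genes passed it, 38.5% lower and 39.2% higher. PRDX1 (Entrez 5052), the main cytosolic peroxiredoxin, was at 687, 711 and 655 CPM under normoxia and at 327, 274 and 312 CPM under hypoxia. The groups were well apart, and it was 2.25-fold lower (log2-fold change -1.17 ± 0.063, edgeR adjusted p = 2e-11). The other decreases were smaller. PRDX4, of the endoplasmic reticulum, had a log2-fold change of -0.64 ± 0.055, PRDX3, of mitochondria, -0.44 ± 0.058, PRDX6, which uses glutathione, -0.43 ± 0.061, and PRDX2, cytosolic like PRDX1, -0.17 ± 0.052, with edgeR adjusted p-values from 1.03e-08 to 0.00606. PRDX5 (Entrez 25824), found in mitochondria, peroxisomes and the cytosol, was at 158, 149 and 176 CPM under normoxia and at 291, 275 and 297 CPM under hypoxia. Every hypoxic library was above every normoxic one, and PRDX5 was 1.79-fold higher (log2-fold change 0.84 ± 0.061, edgeR adjusted p = 1.05e-09). PRDX1 shares 30.3% of its exonic bases with MMACHC on the opposite strand, which averaged 11.6 CPM against 494 CPM for PRDX1; whether the counting used the strand is not given in the sources used here.

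Superoxide dismutases turn superoxide into hydrogen peroxide, and catalase breaks that down. SOD1, the cytosolic enzyme, was at 182, 202 and 204 CPM under normoxia and at 140, 120 and 134 CPM under hypoxia, with no overlap (log2-fold change -0.58 ± 0.064, edgeR adjusted p = 2.75e-07). SOD2, the mitochondrial enzyme, was at 544, 552 and 621 CPM under normoxia and at 572, 582 and 587 CPM under hypoxia. Its groups overlapped and the log2-fold change was 0.02 ± 0.056. On the opposite strand SOD2 shares 6.2% of its exonic bases with ACAT2 (mean 197 CPM, log2-fold change 0.79) and 0.8% with WTAP (94.2 CPM, -0.50). The part of their reads in the SOD2 value was not tested. CAT (Entrez 847), the peroxisomal catalase, was at 26.7, 26.1 and 26.9 CPM under normoxia and at 42.5, 42.6 and 46.6 CPM under hypoxia. It was 1.65-fold higher, and the groups did not overlap (log2-fold change 0.72 ± 0.068, edgeR adjusted p = 2.87e-08). GPX4, PRDX5 and CAT thus rose while GPX1, PRDX1, PRDX2, PRDX3, PRDX4 and PRDX6, also peroxide-removing enzymes, fell.

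Among the 4 NADPH and pentose phosphate enzymes of the members, 2 were lower and 2 did not pass the threshold, where 38.5% of all tested genes were lower. TALDO1, the transaldolase of the pentose phosphate pathway, went from 276 ± 7.07 to 183 ± 5.27 CPM (SD, n = 3; log2-fold change -0.60 ± 0.051, edgeR adjusted p = 7.58e-09). ME1, the cytosolic malic enzyme that makes NADPH from malate, went from 66.2 ± 4.89 to 42.3 ± 1.28 CPM (log2-fold change -0.65 ± 0.065, edgeR adjusted p = 6.9e-08). In both the groups did not overlap. PGD, which makes the second NADPH of the pathway, was at 301 to 307 CPM under normoxia and at 277 to 315 CPM under hypoxia, with a log2-fold change of -0.022 ± 0.055. TKT, the transketolase, was at 777 to 818 and 750 to 783 CPM, with a log2-fold change of -0.047 ± 0.049. The groups of PGD and of TKT overlapped.

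Per length, the members differed by several orders of magnitude. In mean FPKM, GSTP1 was the highest member in both conditions (915 ± 7.2 under normoxia, 972 ± 22.8 under hypoxia; SD, n = 3). Under normoxia PRDX1 (527 ± 17.9 FPKM), TXN (445 ± 11.5 FPKM) and TKT (247 ± 3.66 FPKM) followed. Under hypoxia the next were PRDX5 (340 ± 9.1 FPKM), TKT (247 ± 3.63 FPKM) and PRDX1 (242 ± 19.2 FPKM), of which TKT and PRDX1 lay within their spread. TXNRD1 went from rank 8 at 217 ± 17.1 FPKM to rank 16 at 45.2 ± 3.27 FPKM, and GPX4 from rank 16 at 92.9 ± 7.9 FPKM to rank 7 at 198 ± 3.92 FPKM. PRDX5 went from rank 10 to rank 2. Of the subunits of glutamate-cysteine ligase, GCLC was at 14.8 ± 0.834 FPKM and GCLM at 9.41 ± 1.08 FPKM under normoxia, and at 5.05 ± 0.0834 and 1.88 ± 0.274 FPKM under hypoxia.

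**Figure D3:**
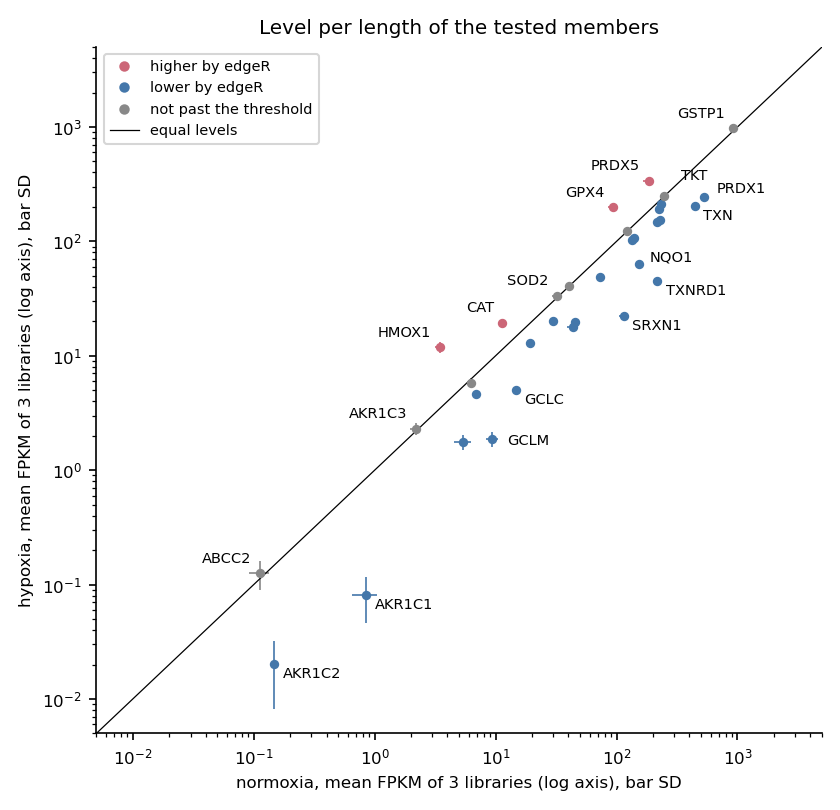
Mean FPKM of each of the 34 tested members under normoxia (x axis, log scale) and hypoxia (y axis, log scale), with the SD of 3 libraries as bars and a line of equal levels. GSTP1 is highest in both conditions and lies near the line, as TKT and SOD2 do, whereas TXNRD1, SRXN1, GCLM and AKR1C1 lie well below it and HMOX1, GPX4, PRDX5 and CAT above it.

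Summed by family, the changes were unequal. The 5 thioredoxin system genes summed to 832, 860 and 784 FPKM under normoxia and to 331, 294 and 329 FPKM under hypoxia. The 6 peroxiredoxins summed to 1294, 1284 and 1284 FPKM under normoxia and to 1083, 1005 and 1063 FPKM under hypoxia. In both families every hypoxic sum was below every normoxic sum, and the gap was wider in the thioredoxin system. The 5 glutathione peroxidases summed to 317, 319 and 334 FPKM under normoxia and to 394, 389 and 406 FPKM under hypoxia, while GCLC, GCLM and GSR together went from 67.6 ± 6.16 to 24.9 ± 1.45 FPKM (SD, n = 3). All 38 members together took 0.737%, 0.746% and 0.724% of the counts under normoxia and 0.543%, 0.52% and 0.54% under hypoxia. These sums are descriptions and were not tested. By limma on log2(FPKM + 1), 24 of the 31 members with a mean of at least 1 FPKM passed the threshold, 4 higher and 20 lower. Of all 10976 genes tested on that scale 80.9% passed (44.2% lower). All 31 members had the same call as by counts. The FPKM derive from the same counts and libraries, so this is not separate evidence. AKR1C1, AKR1C2 and ABCC2 were below that mean.

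The genes of proteins that work with NRF2 formed another list, chosen like the members by name. Of 14 tested partners and regulators, 3 were higher and 9 lower, with a median log2-fold change of -0.21. The 85.7% of this list that was called stands beside 77.8% of all tested genes (39.2% higher and 38.5% lower). BACH1, the repressor that occupies antioxidant response elements and is released by heme, was at 65.3, 59.4 and 89.5 CPM under normoxia and at 325, 391 and 354 CPM under hypoxia. The groups were far apart, and BACH1 was 4.99-fold higher (log2-fold change 2.32 ± 0.11, edgeR adjusted p = 4.35e-12). PGAM5, a mitochondrial phosphatase that binds KEAP1, was 2.83-fold lower (125 to 44.3 mean CPM, log2-fold change -1.50 ± 0.063, edgeR adjusted p = 1.13e-12). The small MAF partners, which pair with NRF2 and with BACH1 alike, differed from each other. MAFF was at a mean of 53.9 CPM under normoxia and 87 CPM under hypoxia (log2-fold change 0.69 ± 0.059, edgeR adjusted p = 7.77e-09), MAFG at 79.7 and 48.4 CPM (-0.72 ± 0.059, edgeR adjusted p = 4.66e-09) and MAFK at 140 and 139 CPM (-0.011 ± 0.057, edgeR adjusted p = 0.868). CUL3, the ubiquitin ligase scaffold that KEAP1 brings to NRF2, had a log2-fold change of -0.73 ± 0.054 (edgeR adjusted p = 1.12e-09).

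Of 17 tested further NRF2 targets, 4 were higher and 11 lower, with a median log2-fold change of -0.39. In this list 88.2% were called and 64.7% were lower, against 77.8% and 38.5% of all tested genes. SLC7A11, the cystine importer that feeds glutathione synthesis, was at 117, 117 and 106 CPM under normoxia and at 11.3, 11.8 and 11.2 CPM under hypoxia. It was 9.91-fold lower with tight replicates (log2-fold change -3.31 ± 0.068, edgeR adjusted p = 1.35e-15). The carbonyl reductases CBR1 and CBR3 were 2.13-fold and 2.96-fold lower, and FECH, the enzyme that inserts iron into protoporphyrin to make heme, 2.26-fold lower, each without overlap and with edgeR adjusted p-values of 2.16e-11, 8.12e-10 and 6.6e-10. The ferritin chains, which store iron, moved apart, with FTH1 at a log2-fold change of 0.91 ± 0.056 (edgeR adjusted p = 1.13e-10) and FTL at -0.35 ± 0.056 (edgeR adjusted p = 2.07e-05). BLVRB, named as a biliverdin reductase, was also higher (0.66 ± 0.061, edgeR adjusted p = 2.7e-08).

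**Figure D4:**
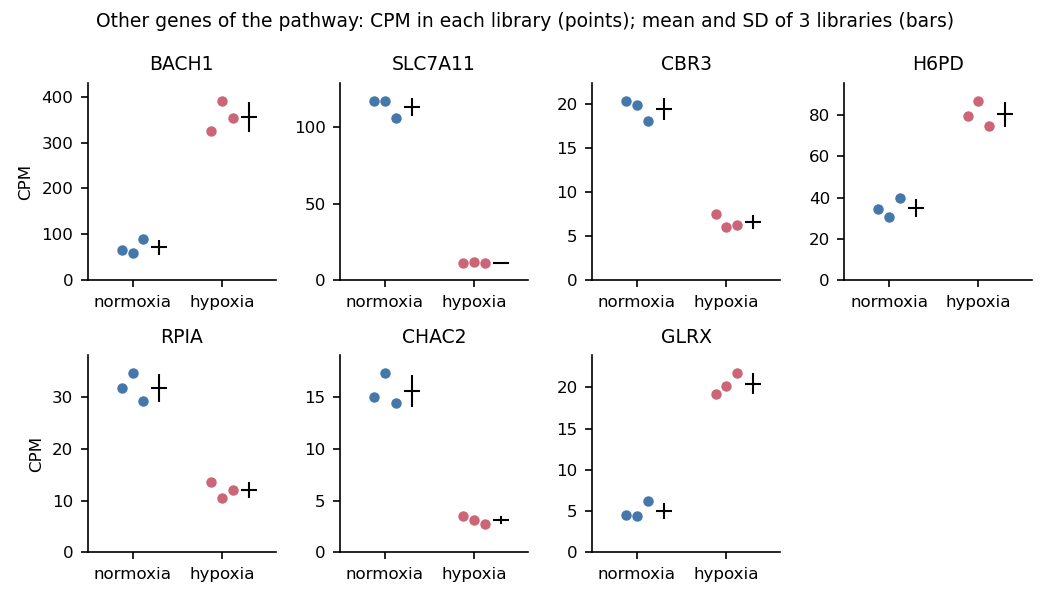
TMM-normalized CPM (y axis, from 0) of 7 other genes of the pathway in the 3 normoxic and the 3 hypoxic libraries (x axis); each point is a library and the bars give the mean and SD. BACH1, H6PD and GLRX lie higher under hypoxia, and SLC7A11, CBR3, RPIA and CHAC2 lower. No pair of groups overlaps, but apart from SLC7A11 the genes were named by a rule that required this. The groups did not overlap for 80.5% of all tested genes.

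The rest of the pentose phosphate and NADPH genes gave 4 higher and 7 lower of 12 tested, with a median log2-fold change of -0.36. Here 91.7% were called and 58.3% were lower, against 77.8% and 38.5% of all tested genes. H6PD, which makes NADPH inside the endoplasmic reticulum, was at 34.6, 30.8 and 39.7 CPM under normoxia and at 79.5, 86.9 and 74.7 CPM under hypoxia. Every hypoxic library was above every normoxic one, and H6PD was 2.29-fold higher (log2-fold change 1.20 ± 0.081, edgeR adjusted p = 4.04e-10). RPIA, the ribose 5-phosphate isomerase, was 2.66-fold lower (31.9 to 12.1 mean CPM, log2-fold change -1.41 ± 0.1, edgeR adjusted p = 8.47e-10). PGLS, the 6-phosphogluconolactonase of the pathway, was higher (0.77 ± 0.06, edgeR adjusted p = 2.51e-09), as was IDH1, a cytosolic NADPH source outside the pathway (0.71 ± 0.062, edgeR adjusted p = 1.11e-08). The NAD kinases NADK and NADK2, which make NADP, were lower (-0.81 ± 0.06 and -0.57 ± 0.066, edgeR adjusted p = 1.39e-09 and 4.49e-07).

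Of 18 other glutathione and glutaredoxin genes tested, 9 were higher and 9 lower, with a median log2-fold change of 0.13. All 18 were thus called, against 77.8% of all tested genes. CHAC2, which degrades glutathione in the cytosol, was 4.93-fold lower (15.6 to 3.16 mean CPM, log2-fold change -2.30 ± 0.13, edgeR adjusted p = 5.9e-11). The cytosolic glutaredoxin GLRX was at 4.49, 4.4 and 6.19 CPM under normoxia and at 19.2, 20.1 and 21.7 CPM under hypoxia. It was 4.06-fold higher (log2-fold change 2.02 ± 0.13, edgeR adjusted p = 1.61e-10), whereas the mitochondrial GLRX2 was 2.77-fold lower (-1.47 ± 0.18, edgeR adjusted p = 8.7e-07). GSTM4, a scarce transferase, was 2.3-fold higher (1.47 to 3.39 mean CPM, edgeR adjusted p = 9.79e-05). Of 9 listed enzymes and partners that produce superoxide or hydrogen peroxide, 3 were tested and 2 were higher, with a median log2-fold change of 0.37. Among all tested genes 39.2% were higher. The calcium-activated NADPH oxidase NOX5 had 31, 24 and 16 counts under normoxia and 162, 226 and 139 counts under hypoxia, 7.02-fold higher (log2-fold change 2.81 ± 0.24, edgeR adjusted p = 1.06e-08). MAFF, MAFG, MAFK, CUL3, FTH1, FTL, BLVRB, PGLS, IDH1, NADK and NADK2 were chosen for mention after their values were seen.

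**Figure D5:**
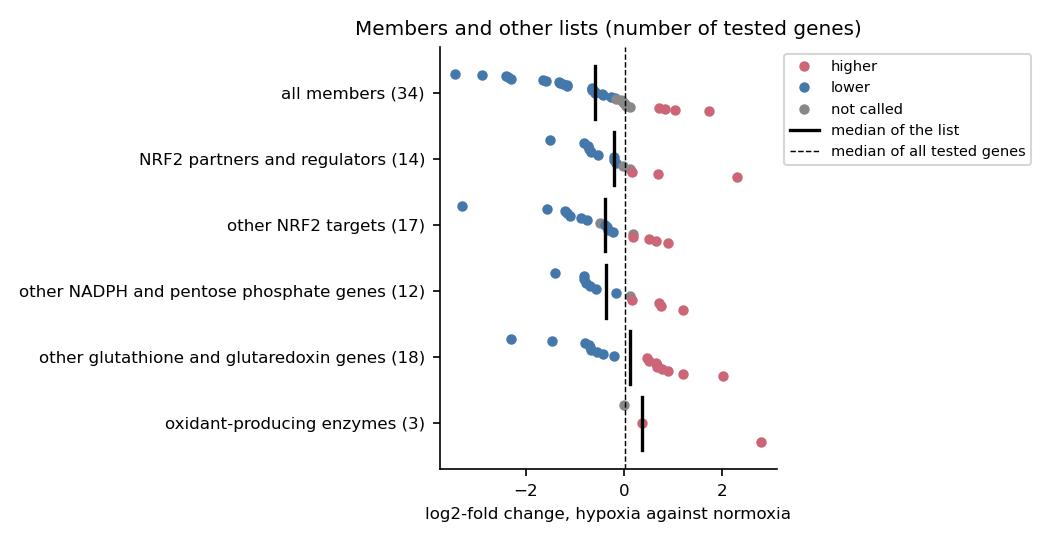
Log2-fold change, hypoxia against normoxia (x axis), of every tested gene of the members and of 5 other lists (y axis, number of tested genes in parentheses); points are genes coloured by call, solid bars the median of a list and the dashed line the median of all tested genes. The members have the lowest median, -0.58, and the glutathione and glutaredoxin list lies at 0.13.

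Terms that the deposited annotation gives its genes were read as a wider frame, chosen after their values had been seen. For comparison, 39.2% of all tested genes were higher and 38.5% lower, with a median log2-fold change of 0.023. In the Reactome term for NFE2L2 regulating antioxidant and detoxification enzymes, 10 of 15 tested genes were lower and 3 higher, with a median log2-fold change of -1.17; without the 9 that are members, 2 of 6 were lower and 2 higher, with a median of 0.034. In the WikiPathways NRF2 pathway, 41 of 87 tested genes were lower and 33 higher (median -0.051), and without the members 29 of 71 were lower and 32 higher (median 0.086). In the term for detoxification of reactive oxygen species, 12 of 28 were lower and 9 higher (median -0.10), and without the members 2 of 12 were lower and 7 higher (median 0.39). In the Reactome term for glutathione synthesis and recycling, 7 of 11 were lower and 4 higher (median -0.42), and without the members 5 of 9 were lower and 4 higher (median -0.21). In the term for the pentose phosphate pathway, 8 of 24 were lower and 10 higher (median 0.11), and without the members 7 of 21 were lower and 10 higher (median 0.63).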

How the data were processed

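Members and lists were chosen with earlier results of these data known. The authors deposited whole-number read counts for 21776 genes, each with at least 1 read in total, and FPKM for the same genes, which for the members could be recomputed from the counts, a gene length and the library total. The aligner, annotation, counting tool and strand setting are not given in the sources used here. The submitters' processing notes name the mouse builds GRCm38 and mm10, although the rows carry human symbols and Entrez numbers, so the only coordinates given are those of the RefSeq promoter windows.

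From the counts, 14255 genes that passed filterByExpr were fitted with edgeR 4.0.16 in R 4.3.3 (TMM, glmQLFit and glmQLFTest, condition as the only term, Benjamini-Hochberg at 0.05). The SE was taken as the size of the log2-fold change over the square root of F, and CPM used the TMM-adjusted library totals. FPKM were tested as log2(FPKM + 1) with limma 3.58.1 where the mean reached 1 FPKM; fold changes on that scale understate changes of low genes. Totals ranged from 29637189 to 37278703, and the common biological coefficient of variation was 0.0685. Every pair of replicates differed by more than sampling noise (chi-square per gene 5.11 to 11.5), and each library was counted as 1 replicate. Alternatives were DESeq2 size factors, the DESeq2 1.42.0 Wald test, no filter, at least 10 counts in every library, a replicate block, leaving out 1 library at a time, requiring a 2-fold change, and, for FPKM, a pseudocount of 0.1 or no filter.

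All members were named. From the other lists, genes were named at an adjusted p-value under 0.05, a log2-fold change of at least 1 in size, no overlap between the conditions and an average log2 CPM of 1 or more, together with SLC7A11; others are marked where given. An item covered by this rule is not reported here. On simulated counts of this comparison, edgeR recovered 100 of 100 genes changed by 1 and 100 of 100 changed by 2 on the log2 scale among 14226 genes, with 5 false calls. Only these genes were changed there, as many up as down and none at low counts. In the data 77.8% of tested genes were called, with 2840 higher and 1498 lower by at least 2-fold. The simulation therefore does not give the number of false calls here, nor the recovery of scarce genes. Overlapping exons came from GENCODE v29 and promoter windows from RefSeq GRCh38.p14.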

Additional observations from a re-analysis of the deposited data

How the results depend on the processing

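The 26 members called by edgeR were called in the same direction with DESeq2's size factors, by the DESeq2 Wald test, with no filter, with the replicate block and without each library in turn. With at least 10 counts in every library 24 were called: AKR1C2 was not tested and PRDX2 did not pass (-0.10, edgeR adjusted p = 0.0960), while GSTP1 did (0.12, edgeR adjusted p = 0.0326). That filter moved the log2-fold changes of all genes by a median of 0.077. Without hypoxia replicate 1, GPX8 passed (-0.24, edgeR adjusted p = 0.0309). Requiring a 2-fold change as well left 2840 genes higher and 1498 lower, and 2 members higher and 12 lower. The other counts of calls stayed within 1.5 times their values, including those of the other lists and of the FPKM test.

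Changes of sign touched only members that had not passed. With no filter the log2-fold change was -0.027 for AKR1C3, -0.00023 for GSTP1 and -0.021 for SOD2. With at least 10 counts in every library it was 0.029 for TXN2, 0.055 for PGD and 0.03 for TKT. With each library left out in turn it ranged from -0.12 to 0.27 for ABCC2, from -0.097 to 0.096 for AKR1C3, from -0.03 to 0.066 for SOD2 and from -0.069 to 0.027 for PGD. In FPKM it ranged from -0.024 to 0.097 for AKR1C3, from -0.018 to 0.011 for TXN2, from -0.013 to 0.067 for PGD and from -0.012 to 0.0099 for TKT, PRDX2 did not pass without hypoxia replicate 3 (-0.12, limma adjusted p = 0.0523), and SOD2 passed without normoxia replicate 3 (0.13, limma adjusted p = 0.0219). The cause of these changes was not tested.

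Same-numbered libraries did not deviate together (correlations 0.0175, -0.069 and 0.00122 for replicates 1 to 3), so the numbers were not taken to pair the samples. With the replicate number as a block 10875 genes were called in place of 11090, with 5456 higher and 5419 lower, and 4 members were higher and 22 lower. Members with 3 or fewer counts in a library, such as AKR1C2 under hypoxia, are limited by depth.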
